A study of Gallus gallus with 4 samples.

Results

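The genes described here encode 5 secreted peptides of neurons and endocrine cells, NPY, CALCA, VIP, SST and GCG, in cultures of chick neural retina exposed to DAPT. They were chosen by their log2 signals in DAPT and DMSO on these same arrays, with the differences already known, so their values are given as a description with no test. They are read by 12 probes, none of them a control, that the array design assigns to a RefSeq transcript of these genes, and they are 5 of 5309 genes that could be named by a symbol. NPY has 2 probes (transcript NM_205473), CALCA 3 (NM_001271964), VIP 2 (NM_205366) and SST 3 (NM_205336). GCG has 1 probe on each of 2 transcripts (NM_001190165 and NM_205260). All 5 genes passed the filter on dim probes, and each of the 12 probes stood well above background on both DAPT arrays, on both DMSO arrays, or on all 4. SST is listed as SST1 in the chicken gene table used for names, with SST as its synonym.

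Neural retina is the inner layer of the optic cup, from which retinal neurons and Müller glia arise. In 2 cultures it grew with the γ-secretase inhibitor DAPT, and in 2 others with DMSO, the solvent. DAPT was at 10 µM, and in both groups the cells came from embryonic day 8 (stage 33), were dissociated with trypsin, grew in medium with serum, received inhibitor or solvent from day 2 and gave RNA on day 12. Each culture was measured on 1 one-colour array, with both replicate 1 arrays on slide 1 and both replicate 2 arrays on slide 2. The labels name no strain, sex or genetic change, and they do not say whether replicates came from separate embryos or platings, so the spread between them may be technical. Because γ-secretase cuts many membrane proteins besides Notch, the comparison reports exposure to an inhibitor and not the loss of a single pathway.

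Neuropeptides are cut from longer precursor proteins in the secretory pathway, stored in dense-core granules and released to act on G-protein-coupled receptors of nearby cells. In the vertebrate retina they are mostly products of amacrine cells, the interneurons of the inner retina, and in the chick the glucagon-containing amacrine cells are known for their link to the control of eye growth. NPY and somatostatin receptors mostly lower cAMP in the receiving cell, whereas receptors of VIP, CGRP and glucagon raise it.

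All values below are log2 processed signals relative to the 75th percentile of the array, so that 0 is the signal below which 75% of its probes lie. Differences are DAPT minus DMSO, with the standard error of the linear model (SE, n = 2 arrays per group). Levels of different probes are not compared with each other, except where signals are summed. On each array 43803 spots apart from controls were read, and 87.7% to 89.3% of them were well above background in DAPT, against 85.7% to 87.2% in DMSO. Precision is limited throughout by having only 2 arrays in a group. Of 12 measured neural retina markers, 11 were well above background on all 4 arrays. That share is near the one of all spots on each array. So were 18 of 18 lens and 11 of 11 fibroblast markers, so detection alone does not identify the cells. These counts cover tested genes, which had passed the filter on dim probes, so they are partly set by it. Of 12 fibroblast markers on the array DCN was not tested, and its brighter probe was well above background on 1 DAPT array. In bulk RNA, a different number of cells of a type and a different amount of RNA per cell cannot be told apart. This holds for every higher or lower value below.

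The peptide genes did not move as a block. NPY and CALCA were far higher in DAPT cultures, and VIP, SST and GCG were lower, by smaller amounts. For each gene both DAPT arrays lay on 1 side of both DMSO arrays. Across the 5045 tested genes with a symbol, both DAPT arrays lay above both DMSO arrays in 42% and below them in 29.6%, so a lack of overlap is common here, and since this contrast chose the genes, nothing is read from their count. Ordered by difference, CALCA had rank 9 and NPY rank 30 from the top of these genes, while GCG had rank 230, SST rank 318 and VIP rank 485 from the bottom.

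NPY encodes neuropeptide Y, a peptide transmitter of brain, sympathetic nerves and amacrine cells. Its brighter probe had values of 7.47 and 7.67 in DAPT replicates 1 and 2, against 3.19 and 4.23 in DMSO replicates 1 and 2. Both DAPT arrays were thus close together and far above both DMSO arrays, which differed from each other by more. The means were 7.57 ± 0.14 in DAPT and 3.71 ± 0.73 in DMSO (SD, n = 2 each), a difference of 3.86 ± 0.37 or 14.6-fold. In unscaled processed signal this was 262740 and 288450 units in DAPT, against 14623 and 27949 in DMSO, with no spot saturated. NPY was therefore a bright probe in DMSO cultures too. The other probe read 7.34 and 7.35 in DAPT, against 2.94 and 3.89 in DMSO, and differed by 3.93 ± 0.33. The difference was larger on slide 1 than on slide 2 for both probes, at 4.28 and 3.45 for the brighter one and 4.40 and 3.46 for the other. DMSO replicate 1 was the lowest array for both probes. For the brighter probe the DAPT arrays differed by 0.20 and the DMSO arrays by 1.04.

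CALCA encodes calcitonin and, through another splice form, the calcitonin gene-related peptide CGRP, a peptide of sensory neurons. The brightest of its 3 probes had values of 2.12 and 2.10 in DAPT, against -4.66 and -3.93 in DMSO. The difference was 6.40 ± 0.26, or 84.5-fold, with 6.77 on slide 1 and 6.03 on slide 2. Signal in DAPT was strong and nearly the same on both arrays, at 6420 and 6050 units, while in DMSO it was 63.6 and 97.7 units, dim but still well above background. The second probe read 1.51 and 1.57 in DAPT, against -5.18 and -4.17 in DMSO, a difference of 6.21 ± 0.35. The third read 0.48 and 0.44 in DAPT, against -5.68 and -5.57 in DMSO, a difference of 6.09 ± 0.10. All 3 probes belong to the same transcript, and whether its signal stands for the calcitonin or the CGRP form was not determined here. The DMSO signal was dim, and the size differed under another background correction with an offset. Normexp background correction gave 5.61, 5.07 and 4.52 for the same probes. It started from the median spot signal and added an offset of 50 units to every spot. The part of the offset and that of the correction itself cannot be told apart here, in this and every normexp value below.

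VIP encodes vasoactive intestinal peptide, found in a class of amacrine cells. Its brighter probe was dim on all 4 arrays, at -6.28 and -6.93 in DAPT, against -5.67 and -5.81 in DMSO, with no array above 31.4 units of signal. The groups did not overlap, but the gap between them, 0.47, was smaller than the distance of 0.65 between both DAPT arrays. The difference was -0.86 ± 0.24, with -0.61 on slide 1 and -1.12 on slide 2. It was -0.54 without DAPT replicate 2, and -0.20 under normexp correction. The other VIP probe was not well above background in DAPT, where its measured values were -9.61 and -9.18, against -6.07 and -6.64 in DMSO. A floor was set on each DAPT array at the dimmest probe still well above background there, or at the VIP probe's own signal if that was higher. Against this floor the probe was at least 3.62-fold lower in DAPT than in DMSO. Both probes put VIP lower in DAPT cultures, and they give no common size.

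SST encodes somatostatin, an inhibitory peptide of amacrine cells, hypothalamus and pancreatic islets. The brightest probe had values of -0.30 and -0.60 in DAPT, against 1.33 and 0.26 in DMSO. The DMSO arrays differed by 1.07, more than the gap of 0.56 between the groups, while the DAPT arrays lay close together. The difference was -1.25 ± 0.38, or 2.37-fold lower in DAPT. The other probes gave -2.12 and -2.07 in DAPT, against -0.56 and -1.18 in DMSO (a difference of -1.22 ± 0.23), and -2.21 and -2.18 in DAPT, against -0.54 and -1.32 in DMSO (-1.27 ± 0.28). In every SST probe DMSO replicate 1 was the high array, so the difference was -1.63 on slide 1 and -0.86 on slide 2 for the brightest one. Without DMSO replicate 1 it was -0.71, and without DMSO replicate 2 it was -1.78. The related gene SST7, a somatostatin paralogue named here after its value was seen, was at -4.52 and -4.68 in DAPT, against -2.87 and -3.20 in DMSO, and fell by 1.57 ± 0.16 on the log2 scale (limma, adjusted p = 0.00558).

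GCG encodes proglucagon, the precursor of glucagon and the glucagon-like peptides. The probe on the first transcript had values of -5.68 and -5.67 in DAPT, against -4.22 and -3.99 in DMSO. That is a tight separation, with a gap of 1.45 between the groups and at most 0.23 within one. The difference was -1.57 ± 0.12, or 2.97-fold lower in DAPT, and it was -1.46 on slide 1 and -1.68 on slide 2. The probe on the second transcript read -5.33 and -6.10 in DAPT, against -5.20 and -5.10 in DMSO, a difference of -0.56 ± 0.28 that came to -0.13 on slide 1 and -1.0 on slide 2. The groups lay further apart for the first probe than for the second, a difference that was not tested, and which peptides each transcript encodes was not determined here. Both probes were dim, the first at 29.0 and 27.8 units in DAPT, against 86.1 and 94.0 in DMSO, and normexp correction gave -0.63 and -0.17.

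**Figure D1:**
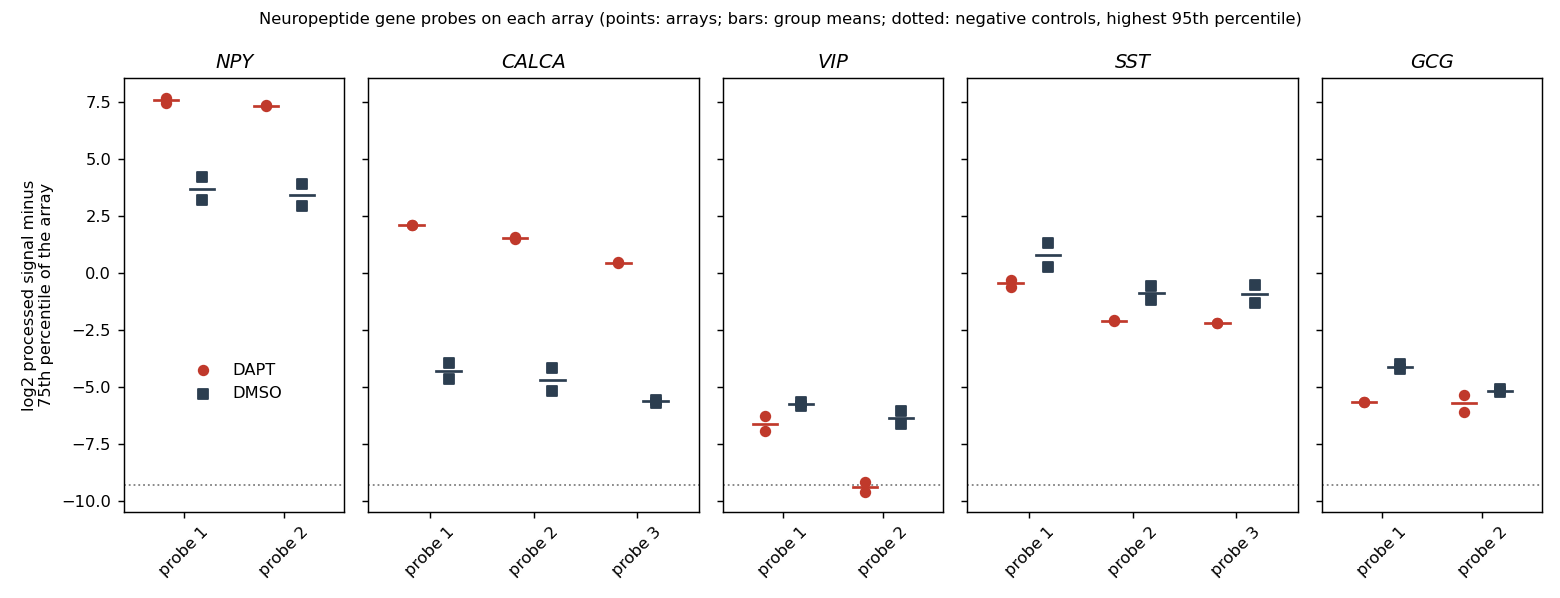
Normalised log2 signal of every probe of NPY, CALCA, VIP, SST and GCG on each array (y axis, relative to the array's 75th percentile), with DAPT left of DMSO, 1 point per array and a bar at each group mean. The dotted line is the highest 95th percentile of the negative control spots of any array, at -9.32. The brighter NPY probe lay at 7.47 and 7.67 in DAPT and at 3.19 and 4.23 in DMSO, while for SST the DMSO arrays were 1.07 apart.

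The sign of all 12 probes was the same under 5 ways of scaling, which were the 75th percentile, normexp correction, quantile normalization, the median and the authors' deposited values. Sizes were stable for NPY, whose brighter probe ranged from 3.73 with quantile normalization to 3.95 with normexp correction, and for SST, whose brightest probe ranged from -1.31 with the authors' values to -1.20 with median scaling. Sizes of the dim probes were not. Normexp correction, with its offset of 50 units, gave the value nearest to 0 for every probe of CALCA, VIP and GCG.

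**Figure D2:**
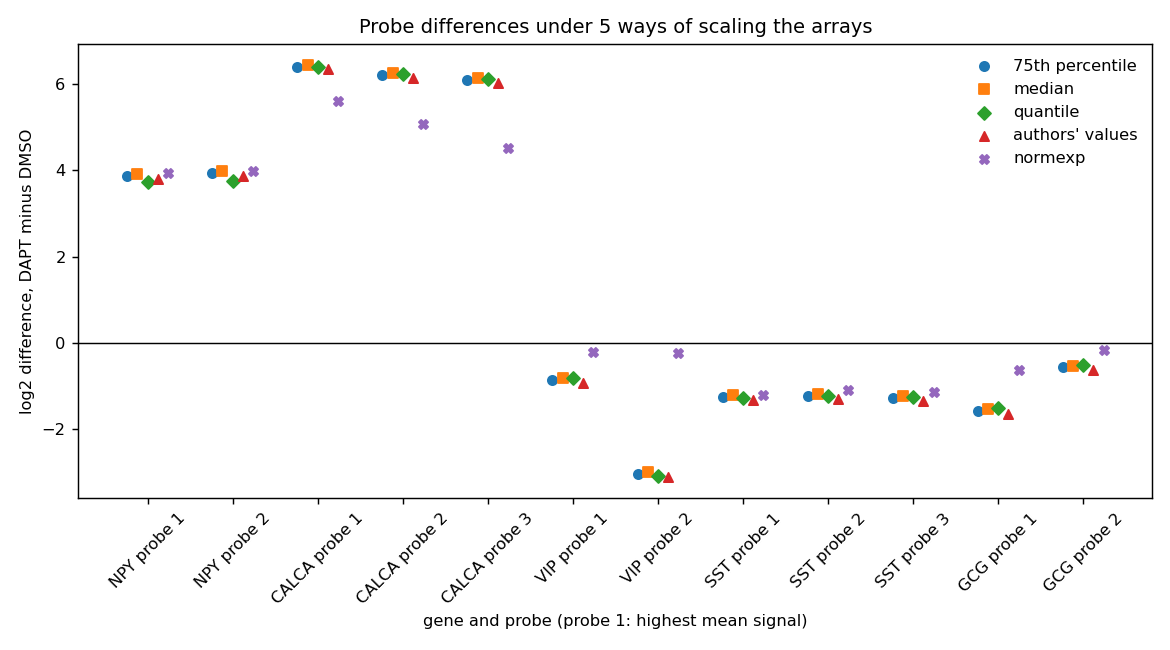
Log2 difference, DAPT minus DMSO (y axis), of each of the 12 probes (x axis) under 5 scalings, with 1 marker per scaling. All markers of NPY and CALCA lie above 0 and all markers of VIP, SST and GCG below it. Under normexp correction with its offset the dim probes lie nearer to 0, as for the first GCG probe at -0.63 in place of -1.57.

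The genes whose profile over the 4 arrays was most like that of each peptide gene were taken by Euclidean distance between log2 values centred on each gene's own mean. With 4 arrays this is a coarse measure, and all genes share the same arrays. Nearest to NPY were TNNT2 (distance 0.465), a troponin of heart muscle, AOX2 (0.683), an aldehyde oxidase, and CD24 (0.685), a surface glycoprotein. Nearest to CALCA were BFSP2 (0.426), a beaded filament protein of lens fibres, VSIG1 (0.445), an adhesion protein, and ASL (0.707), a δ-crystallin gene. VIP had RASL10A (0.203), WNT9A (0.217) and COL20A1 (0.240) beside it, a Ras-like protein, a Wnt ligand and a collagen. For SST the nearest were CD247 (0.266), a T cell receptor chain, KIT (0.302), a receptor kinase, and AK5 (0.328), an adenylate kinase. For GCG they were BST1 (0.0261), an ectoenzyme, SLC40A1 (0.0756), the iron exporter ferroportin, and EBF1 (0.0841), a transcription factor that is also in the amacrine cell list.

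Other precursors of neuropeptides and peptide hormones were more often lower than higher in DAPT. Of 25 tested, 1 rose and 9 fell past the threshold of an adjusted p of 0.05 (limma with Benjamini-Hochberg adjustment, as for each call below), and their median difference was -0.37 (-0.41 on slide 1, -0.35 on slide 2, and -0.11 under normexp correction). Among all 5045 tested genes with a symbol 14.2% rose and 13.8% fell, with a median of 0.081, and among all 32288 features 12.3% rose and 13.1% fell. These shares are the background for the counts of every list below. The list and the 5 genes were chosen with earlier results of these data known. ADCYAP1, which encodes PACAP, the peptide closest to VIP, was at -2.24 and -2.40 in DAPT, against 0.29 and 0.33 in DMSO, and fell by 2.63 ± 0.11 (adjusted p = 0.00121). All 3 ADCYAP1 probes passed. NTS, the neurotensin precursor, was at -5.24 and -5.16 in DAPT, against -2.35 and -3.0 in DMSO, and fell by 2.52 ± 0.24 (adjusted p = 0.00495). GIP, an incretin of the glucagon family, was at -2.03 and -1.82 in DAPT, against -0.29 and 0.12 in DMSO, and fell by 1.84 ± 0.18 (adjusted p = 0.00549). These genes separated the groups without overlap.

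Of the other precursors that fell, CCK, for cholecystokinin, was at -1.56 ± 0.10 (adjusted p = 0.00225), IGF2, an insulin-like growth factor, at -1.56 ± 0.10 (adjusted p = 0.00223), and AVP, for the vasopressin family peptide, at -1.42 ± 0.13 (adjusted p = 0.0043). Smaller falls passed for EDN2, an endothelin, at -0.60 ± 0.11 (adjusted p = 0.0251), for GHRL, ghrelin, at -0.51 ± 0.10 (adjusted p = 0.0325), and for PTHLH, the parathyroid hormone-like peptide, at -0.48 ± 0.11 (adjusted p = 0.0420). None of these 3 passed when any single array was left out. GHRL also missed the threshold under normexp correction (-0.25, adjusted p = 0.107), quantile normalization (0.0533) and no filter on dim probes (0.0532). PTHLH missed it with median scaling (adjusted p = 0.0513) and with no filter (0.0662). Of 3 EDN2 probes 2 passed, and of 3 PTHLH probes 1 passed, with other probes up to -0.075 and -0.095. NMB, which encodes neuromedin B, was the precursor that rose, at -2.98 and -2.73 in DAPT, against -3.95 and -4.15 in DMSO, a difference of 1.20 ± 0.15 (adjusted p = 0.00871). GAL, galanin, was not well above background on either DMSO array and had a difference of 1.03 ± 0.26 that missed the threshold (adjusted p = 0.0550). Against a floor set as for VIP it was at least 1.66-fold higher in DAPT.

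The remaining precursors did not pass. GRP, gastrin-releasing peptide, was at -1.01 ± 0.30 (adjusted p = 0.0776), with -1.44 on slide 1 and -0.59 on slide 2. CRH was at -0.61, RLN3 at -0.51, IAPP at -0.37, GNRH1 at -0.33, HCRT at -0.23, NPVF at -0.20, NMU at -0.14 and INS at -0.087. PPY, for pancreatic polypeptide, the relative of NPY, was at -0.014 ± 0.43, with both groups overlapping. PRLH was at -0.0011, SCT, secretin, at 0.046, TRH at 0.059 and NPPA at 0.41. GHRH, PMCH, PNOC and PTH are on the array and were too dim to be tested. With the slide as a block, which is the same fit as a block for the replicate number, 3 precursors rose and 12 fell. The added calls were GAL (adjusted p = 0.00323) and NPPA (0.0244), which were higher, and GRP (0.0331), RLN3 (0.0218) and IAPP (0.0326), which were lower.

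The list of receptors of the 5 peptides, which also holds the associated proteins CRCP and RAMP3, leaned the other way. Of 15 tested, 6 rose and 2 fell (40% and 13.3%, against 12.3% and 13.1% of all features). CRCP is among those that rose. The median difference was 0.51 (0.35 on slide 1, 0.55 on slide 2), and CRCP itself was the gene at this median of 0.51. That median was 0.25 under normexp correction and 0.21 without DMSO replicate 2. With the slide as a block 8 rose and 3 fell, the added calls being NPY7R (adjusted p = 0.0142), SSTR2 (0.0420) and GCGR (0.0486). Among NPY receptors, NPY5R was at -4.86 and -4.58 in DAPT, against -5.91 and -6.56 in DMSO, a rise of 1.52 ± 0.26 (adjusted p = 0.0200) that was smaller on slide 1 (1.05) than on slide 2 (1.98). NPY2R was at -4.46 and -4.52 in DAPT, against -5.33 and -5.23 in DMSO, and rose by 0.79 ± 0.11 (adjusted p = 0.0107). NPY1R was at -5.66 and -5.41 in DAPT, against -6.60 and -6.14 in DMSO, and rose by 0.83 ± 0.20 (adjusted p = 0.0490). This call was lost under normexp correction (adjusted p = 0.215), with the authors' values (0.0570) and with quantile normalization (0.0764). It was also lost with no filter on dim probes (0.0754) and with a trended prior (0.0552). NPY7R was at 0.51 ± 0.35 with overlapping groups and did not pass without the block, and its difference was 0.52 on slide 1 and 0.51 on slide 2. NPY4R and NPY6R were too dim to be tested. NPY and the 3 of its receptors that rose were thus higher in the same cultures, though the receptor signals were dim.

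Of 4 tested somatostatin receptors 2 rose, in the cultures in which SST itself was lower. SSTR5 was at -2.72 and -2.42 in DAPT, against -4.54 and -4.22 in DMSO, and rose by 1.81 ± 0.18 (adjusted p = 0.00525), with nearly the same difference on both slides (1.83 and 1.80). SSTR1 was at -5.72 and -5.49 in DAPT, against -6.57 and -6.51 in DMSO, and rose by 0.94 ± 0.13 (adjusted p = 0.0111), but not under normexp correction (adjusted p = 0.0674). SSTR2, at 0.59 ± 0.29, and SSTR3, at -0.21 ± 0.22, did not pass without the slide block. Without DAPT replicate 2 the calls of NPY5R, NPY2R, NPY1R and SSTR1 were lost (adjusted p = 0.0768, 0.0791, 0.202 and 0.0753), and without DAPT replicate 1 those of NPY2R and NPY1R (adjusted p = 0.0898 and 0.107). NPY1R was also lost without DMSO replicate 1 (adjusted p = 0.0975).

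Receptors shared by VIP and PACAP did not move together. VIPR2 was at -1.55 and -1.50 in DAPT, against -0.32 and -0.64 in DMSO, and fell by 1.05 ± 0.15 (adjusted p = 0.0120), but its other probe was at 1.02, so the gene has no single direction on this array. That call was also lost without DAPT replicate 1 or 2 (adjusted p = 0.0665 and 0.0612). VIPR1 was at -0.26 ± 0.19 and ADCYAP1R1, the receptor that prefers PACAP, at 0.36 ± 0.15, and neither passed. CALCRL, the receptor that binds CGRP when paired with a RAMP protein, was at -7.15 and -6.98 in DAPT, against -6.51 and -6.18 in DMSO, and fell by 0.72 ± 0.16 (adjusted p = 0.0372). CALCRL missed the threshold under normexp correction (adjusted p = 0.315), quantile normalization (0.0871) and median scaling (0.0548). The same held with no filter on dim probes (0.0596) and with a trended prior (0.0810). It also missed it without DAPT replicate 1, DAPT replicate 2 or DMSO replicate 2 (differences of -0.64, -0.80 and -0.55). The other CALCRL probe was at -0.29. RAMP3 was at -0.086 ± 0.18. CRCP, a small protein linked to CGRP receptor signalling and also a subunit of RNA polymerase III, rose by 0.51 ± 0.11 (adjusted p = 0.0375). It did not pass with the authors' values (adjusted p = 0.0588), quantile normalization (0.0622) or no filter on dim probes (0.0601), or with any single array left out. The glucagon receptor GCGR was at -0.31 ± 0.26 with overlapping groups (-0.33 on slide 1 and -0.29 on slide 2), but its other probe was at 0.15. GLP1R and GLP2R were too dim to be tested.

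**Figure D3:**
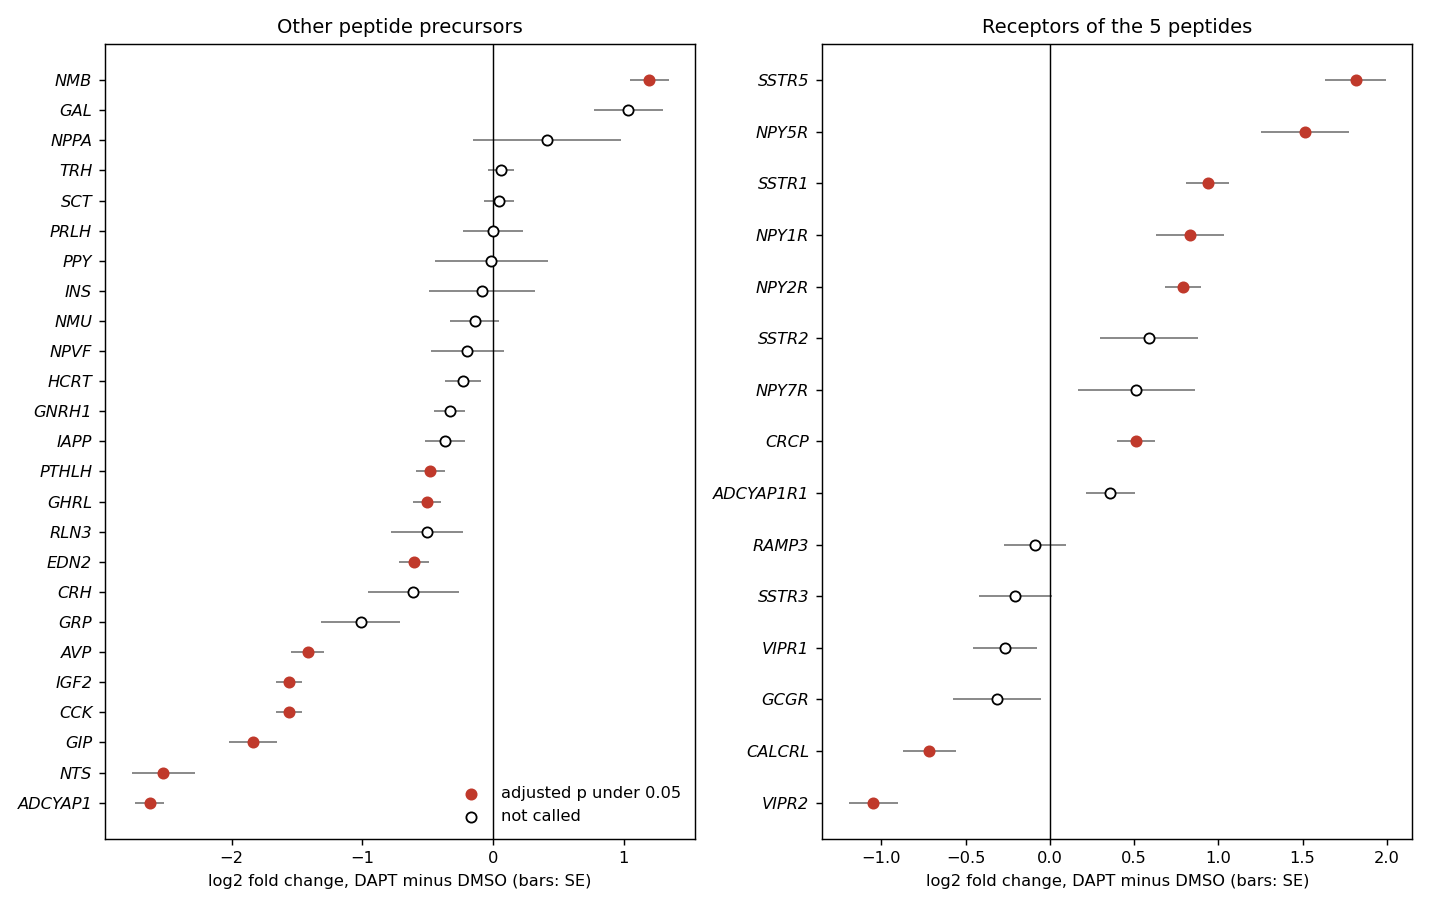
Log2 difference, DAPT minus DMSO (x axis, bars are SE), of each tested peptide precursor (left) and each tested gene of the receptor list (right). Points are red where the adjusted p was under 0.05 and open otherwise. Precursors run from ADCYAP1 at -2.63 to NMB at 1.20, and receptors from VIPR2 at -1.05 to SSTR5 at 1.81.

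Few genes that process peptides were measured under a name. Of 6 in the list of processing enzymes and granule proteins, 0 rose and 1 fell, with a median of -0.34. The share that fell was 16.7%, against 13.1% of all features. The one that fell was SCG3, a granin that sorts cargo into dense-core granules, at 3.31 and 3.34 in DAPT, against 5.67 and 5.39 in DMSO, a difference of -2.20 ± 0.14 (adjusted p = 0.00206). The proprotein convertases FURIN and PCSK7 were at 0.034 ± 0.11 and 0.027 ± 0.12, and SCG5, a chaperone of a neuroendocrine convertase, was at -0.23 ± 0.18. Another PCSK7 probe was at 0.53. SYT1 and CPM, also in this list, were at -0.58 ± 0.20 and -0.46 ± 0.16 without passing, with both DAPT arrays below both DMSO arrays. With the slide as a block SYT1 passed (adjusted p = 0.0472). Of 7 peptidases that break peptides down, 1 rose and 2 fell (14.3% and 28.6%, against 12.3% and 13.1% of all features). Their median of -0.025 turned positive with median scaling (0.019) and without DAPT replicate 2 (0.011). ANPEP, an aminopeptidase, was at 2.09 ± 0.12 (adjusted p = 0.00181), with other probes down to 0.12. FAP, a serine peptidase of activated fibroblasts, fell by 1.80 ± 0.16 (adjusted p = 0.0043), and MME, neprilysin, by 1.06 ± 0.17 (adjusted p = 0.0159), which was lost without DAPT replicate 2, DMSO replicate 1 or DMSO replicate 2 (adjusted p = 0.0666, 0.0559 and 0.0525). DPP4, which trims NPY and the glucagon-like peptides, was at 0.072 ± 0.15.

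Genes of cAMP signalling and response, which lie downstream of the receptors of all 5 peptides, had a median difference of -0.042, which took the other sign with median scaling (0.0026), with quantile normalization (0.014) and without DMSO replicate 1 or DMSO replicate 2 (0.034 and 0.037). Of 15 tested, 2 rose and 1 fell, shares of 13.3% and 6.67%, against 12.3% and 13.1% of all features. CREM, a cAMP-responsive transcription factor, rose by 0.60 ± 0.11 (adjusted p = 0.0243) and PDE3B, a phosphodiesterase, by 0.52 ± 0.11 (adjusted p = 0.0351). FOS, an immediate early gene, fell by 0.87 ± 0.11 (adjusted p = 0.0104), but its other probe was at 0.040. Each of these 3 calls was lost without DAPT replicate 1 (adjusted p = 0.167, 0.166 and 0.0563) and without DAPT replicate 2 (adjusted p = 0.149, 0.241 and 0.0833), CREM and PDE3B also without DMSO replicate 2 (adjusted p = 0.0709 and 0.0643), and PDE3B without DMSO replicate 1 (adjusted p = 0.0988). With the slide as a block 4 rose and 4 fell.

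Amacrine cell genes, the list closest to the retinal source of these peptides, were mostly lower. Of 14 tested, 9 fell and 1 rose (64.3% and 7.14%, against 13.1% and 12.3% of all features). The median difference was -1.12, within slides it was -1.16 and -1.02, and under normexp correction -0.67. Their summed normalised signal, on a linear scale, was 51.6 and 49.5 in DAPT, against 55.8 and 45.9 in DMSO, so the sum overlapped between the groups. Such a sum is weighted to bright probes. In DAPT the brightest were PROX1, ISL1 and SLC6A9 (means of 4.12, 3.78 and 3.40), each with a difference above 0, and in DMSO it was GAD1 (4.21). The sum therefore does not show that the dimmer genes were unchanged. ISL1, LHX9, SLC6A9 and MEIS1 had differences above 0 (0.52, 0.43, 0.12 and 0.099) and did not pass. TFAP2B and TFAP2A, transcription factors of amacrine cells, were at -1.89 ± 0.14 and -1.84 ± 0.12 (adjusted p = 0.0028 and 0.0022), CALB2, calretinin, at -1.68 ± 0.13 (adjusted p = 0.00324), and EBF1 at -1.58 ± 0.15 (adjusted p = 0.00487). GAD1, which makes GABA, was at -1.57 ± 0.15 (adjusted p = 0.00485). SLC18A3 and CHAT, of cholinergic amacrine cells, were at -1.53 ± 0.16 and -1.27 ± 0.18 (adjusted p = 0.0061 and 0.0121), and CHAT missed the threshold without DAPT replicate 1 (adjusted p = 0.0565). PROX1, a homeobox gene also of horizontal cells and lens, rose by 1.52 ± 0.13 (adjusted p = 0.00395). TH, of dopaminergic amacrine cells, was not well above background on any array. VIP, SST and GCG were thus lower in the same arrays as most amacrine genes, and NPY was not. The part of the amacrine genes in these differences was not tested.

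Markers of other cell types also moved with the groups. The summed normalised signal, on a linear scale with the 75th percentile at 1, of 18 lens genes was 722 and 764 in DAPT, against 18.9 and 14.9 in DMSO. Of them 16 rose and 0 fell, with a median of 4.86, led by BFSP1 at 9.21, CRYBB1 at 7.99, ASL1 at 7.90 and CRYBA2 at 7.83, so that NPY and CALCA lay high in the cultures in which lens genes lay high. Pigment cell genes summed to 1.76 and 1.69 in DAPT, against 0.51 and 0.38 in DMSO, and 6 of 7 rose (median 2.01, and 1.03 under normexp correction), led by DCT at 3.35, while RPE65 was too dim to be tested. Fibroblast genes summed to 85.9 and 88.9 in DAPT, against 315 and 381 in DMSO, and 10 of 11 fell (median -2.49), led by COL3A1 at -4.17 and POSTN at -4.14. TAGLN, the other tested gene of this list, lay the opposite way at 0.87 ± 0.23 and did not pass (adjusted p = 0.0581). It passed as higher under normexp correction (adjusted p = 0.0376), with a trended prior (0.0311) and with the slide as a block (0.0170). Retina genes summed to 79.4 and 78.2 in DAPT, against 57.0 and 48.3 in DMSO, and 4 of 12 rose and 0 fell (RLBP1, VSX1, LHX2 and PAX6), of which VSX1 passed with each array left out in turn and the other 3 were lost in at least 1 such fit. The part of each of these lists in the differences of the peptide genes was not tested.

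SST, GCG and INS are also genes of pancreatic islets, and CALCA and NPY also of sensory and sympathetic neurons, so markers of both were read. Of 11 islet genes 3 rose and 2 fell (27.3% and 18.2%, against 12.3% and 13.1% of all features). Their median was 0.19, but it was -0.23 without DAPT replicate 1 and -0.12 without DMSO replicate 2. It was 0.53 without DAPT replicate 2 and 0.45 without DMSO replicate 1, so the list has no settled direction. The sum was 38.8 and 38.7 in DAPT, against 30.2 and 29.1 in DMSO. PAX6 and ISL1, which are also in the retina or the amacrine list, held 87.9% and 88.6% of it in DAPT and 79.7% and 79.0% in DMSO. MAFA rose by 1.58 ± 0.21 and TTR by 1.46 ± 0.23 (adjusted p = 0.0101 and 0.0165), while FOXA2 fell by 0.88 ± 0.21 (adjusted p = 0.0487). PAX6, which also rose, is in the retina list as well, and which cells carried these islet genes was not tested. TTR missed the threshold without DAPT replicate 1 and without DAPT replicate 2 (adjusted p = 0.0598 and 0.0622), and FOXA2 was lost in 3 of the 4 fits that leave out 1 array. INS itself, at -4.97 and -5.65 in DAPT, against -4.75 and -5.70 in DMSO, overlapped between the groups. Of 7 genes of peripheral sensory and autonomic neurons 1 rose and 2 fell, with a median of -0.11 (0.11 without DMSO replicate 1, 0.0051 without DAPT replicate 2, and -0.34 without DMSO replicate 2) and a sum of 0.745 and 0.745 in DAPT, against 1.29 and 1.44 in DMSO. SCN9A, a sodium channel of these neurons, fell by 1.40 ± 0.15 and RUNX1 by 1.43 ± 0.14 (adjusted p = 0.00604 and 0.00523), and TRPV1, of sensory neurons, was at -0.11 ± 0.19 without passing. The summed level of these markers was thus lower in the cultures in which NPY and CALCA were high.

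**Figure D4:**
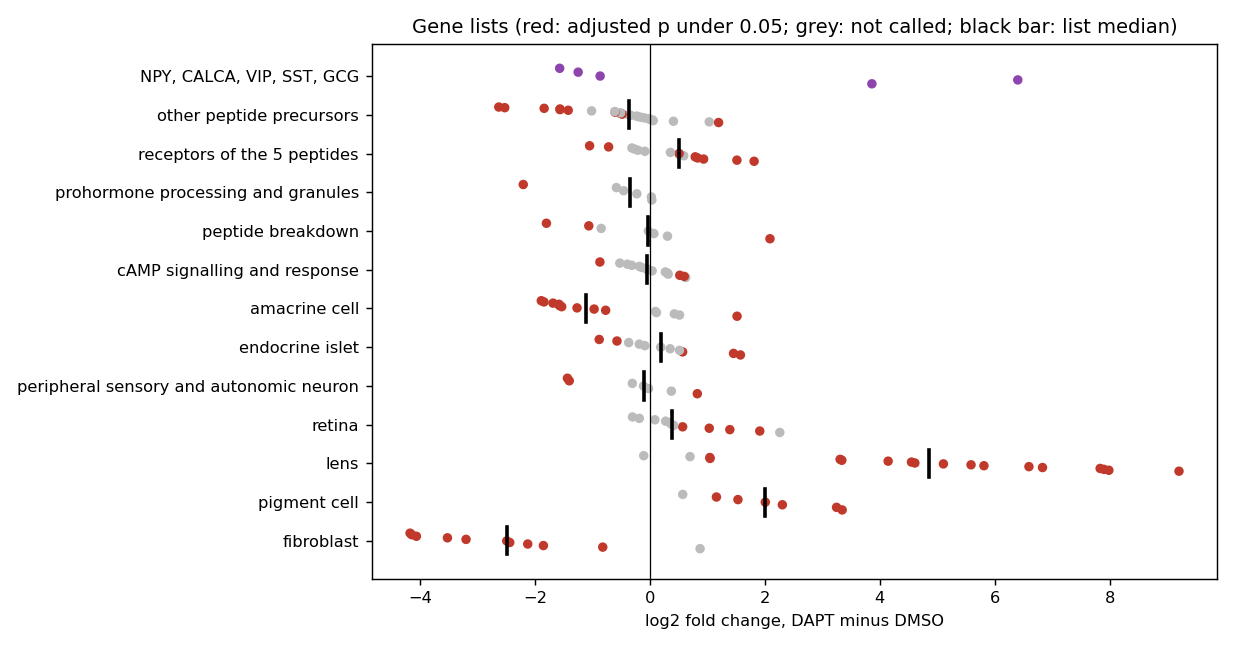
Log2 fold change, DAPT minus DMSO (x axis), of each tested gene of each list (rows), with red points for genes past an adjusted p of 0.05, grey points for the others and a black bar at the median of the list. The 5 peptide genes (purple, given with no test) lie on both sides of 0, list medians were -0.37 for the other precursors, 0.51 for the receptors and -1.12 for amacrine genes, and the lens and fibroblast lists lie furthest apart, at 4.86 and -2.49.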

How the data were processed

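Total RNA of 4 chick neural retina cultures (2 with DAPT, 2 with DMSO, grouped by sample title) was measured on 1-colour Agilent arrays, from 100 ng of RNA labelled with Cy3, per the labels' protocols. Per the file headers, spot intensity came from Agilent Feature Extraction 11.5.1.1, whose processed signal has the background subtracted and is linear. The table of values deposited by the authors holds that intensity times 1 factor per array (1.46 and 1.51 in DAPT, 1.41 and 1.50 in DMSO), with column medians of 349.8 and 335.9 in DAPT and 380.4 and 359.4 in DMSO. It is linear, genes were not centred, and the origin of the factors is not given in the sources used here.

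From the processed signal of Feature Extraction, without the authors' factors, log2 signal minus the array's 75th percentile was computed. Control spots and outlier spots (8 and 4 in DAPT, 7 and 4 in DMSO) were left out, and spots of 1 probe averaged. Probes were named through a RefSeq gene table of assembly GRCg7b, without coordinates, since the array was designed on another build, and 11935 of 43603 probes matched 5382 genes. Each named gene kept its probe of highest mean, and features were tested where well above background on both arrays of a group (32288, of which 5045 have a gene symbol). DAPT was compared with DMSO in limma 3.58.1 (R 4.3.3, prior degrees of freedom 2.39) with a threshold of 0.05 on p-values adjusted by Benjamini-Hochberg over all features. The smallest two-sided p of an exact permutation test with 2 arrays in each group is 0.333. The deviation of replicate 1 from replicate 2 correlated at 0.58 between the groups over features. The slide block, another background correction, scalings, filters, probe choices, a trended prior and each array left out were alternatives. The other background correction was normexp on the median spot signal, with an offset of 50 units added to every spot.

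The 5 genes and all lists were chosen with earlier results of these data known. Named were the 5 genes with every probe, every tested precursor and receptor, up to 4 rising and 4 falling genes of each list whose groups did not overlap (for the marker lists mostly the leading ones), and for each of the 5 the 3 nearest genes. SST7, GAD1, SLC18A3, CHAT, ISL1, LHX9, SLC6A9, MEIS1, DPP4, TRPV1, FURIN, PCSK7, SCG5, SYT1, CPM, TAGLN, DCN and genes too dim to be tested were named after their values were seen. A few list genes are not reported here.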

Additional observations from a re-analysis of the deposited data

How the results depend on the processing

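The differences of the 5 peptide genes kept their sign in every setting run. Leaving out each array in turn gave 3.34 to 4.38 for NPY, 6.04 to 6.76 for CALCA, -1.19 to -0.54 for VIP, -1.78 to -0.71 for SST and -1.68 to -1.45 for GCG. Under normexp correction CALCA was at 5.61, VIP at -0.20 and GCG at -0.63. As a median over every probe VIP was at -1.95 and GCG at -1.07. That VIP value is no exact size, since 1 of the VIP probes was not well above background in DAPT. With the slide as a block, which is also the replicate block, 6852 features rose (6015 fell), all 8220 calls of the fit without the block were shared, and the lists had 3 precursors, 2 peptidases, 4 cAMP genes, 3 amacrine genes, 2 peripheral neuron genes and 1 fibroblast gene higher, and 2 processing genes and 4 cAMP genes lower. Other list counts that moved by over 1.5 times were these. Under normexp correction 0 peripheral neuron genes and 1 fibroblast gene were higher, and 1 receptor, 2 cAMP genes and 1 islet gene lower. Quantile normalization had 1 receptor and 3 cAMP genes lower, median scaling 1 receptor lower and the authors' values 2 cAMP genes lower. With no filter 1 cAMP gene was higher and 1 receptor and 1 islet gene lower, and with a filter on all 4 arrays 0 peripheral neuron genes were higher and 2 cAMP genes lower. With every probe tested, each gene was given the median difference and the median adjusted p of its probes. On that measure 0 peptidases were higher and 0 receptors and 0 cAMP genes lower. Single probes still passed, 2 of ANPEP higher and 1 each of VIPR2, CALCRL and FOS lower. A trended prior had 2 peptidases and 1 fibroblast gene higher, and 1 receptor, 4 cAMP genes and 1 islet gene lower. Leaving out each array gave 1308 to 3080 features higher and 1997 to 3364 lower, fewer samples being used. Counts higher then were 1 to 5 receptors, 0 to 2 cAMP genes, 1 to 3 islet genes, 1 to 2 amacrine genes, 0 to 1 fibroblast genes, 0 to 1 peripheral neuron genes and 1 to 5 retina genes, and counts lower were 0 to 2 receptors, 0 to 1 cAMP genes, 0 to 1 islet genes, 1 to 2 peptidases and 1 to 2 processing genes. In these fits the lone array of a group is assumed to vary like the others. The cause of these moves was not tested. Signal over background limits VIP, GCG and most receptors, whose probes were dim in both groups.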
